A study of Mus musculus with 8 samples.

Results

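The genes described here make or mark connective tissue: 38 genes of fibroblasts and of the extracellular matrix other than collagens. They were taken by symbol from a table of 23827 gene rows, and all 38 had a row and passed the filter on low counts. RNA came from superior cervical ganglia of C57Bl6/n mice on postnatal day 1, the paired sympathetic ganglia at the top of the chain. All 8 animals were KIF1Bb fl/fl, that is, homozygous for a loxP-flanked Kif1b beta allele. The 4 control animals were DBHcre -/- and so had no Cre, and the 4 conditional knockout (cKO) animals were DBHcre +/-. This Cre is named for Dbh, whose promoter is active in noradrenergic cells such as sympathetic neurons. Each library was made from the ganglion pair of 1 animal, with every cell of the ganglion in it. No group had the Cre without the flanked allele, so effects of the Cre itself and of the deletion cannot be told apart.

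Fibroblasts of peripheral ganglia and nerves lie in the capsule and between the nerve fibres. They secrete a mesh in which collagen fibrils are bound and spaced by small leucine-rich proteoglycans, elastic fibres are laid on microfibrils and joined by lysyl oxidases, and glycoproteins such as fibronectin link cells to the fibres. Metalloproteinases cut this mesh, and tissue inhibitors of metalloproteinases (TIMPs) hold them back. Basement membranes, which wrap glia and vessels, are built of laminins, nidogens and type IV collagen. Many of these proteins are also made by glial, endothelial and mural cells.

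Total counts per library were between 16214912 and 18114418. Levels are given as CPM, the counts of a gene relative to the scaled size of its library. Kif1b was at 1224 ± 222 CPM in the control against 260 ± 52.7 in the cKO animals (SD, n = 4). Its log2 fold change was -2.24 (SE 0.18, edgeR adjusted p = 3.43e-04). The sympathetic genes Th and Dbh, which mark the tissue, were at 1344 ± 107 and 2421 ± 195 CPM in control against 1233 ± 74.7 and 2117 ± 69.7 in cKO ganglia (SD, n = 4). Neither passed the test, at log2 changes of -0.12 (SE 0.09) and -0.19 (SE 0.09). Control 1 and cKO 1 stood apart from the rest on the first principal component of all tested genes, with 37.1% of the variance. Of 16 skeletal muscle genes 12 were tested, with Ckm, Myh8, Myog and Myod1 below the filter. The 12 summed to 86.9 CPM in control 1 and 227 CPM in cKO 1. The other control libraries had 36.9 to 55.8 CPM and the other cKO libraries 37.8 to 47.3 CPM. None of the 12 passed, and Actc1 and Tnni2 had log2 changes of 1.16 (SE 0.49) and 1.61 (SE 1.06). The list median was 0.67, and -0.08 without control 1 and cKO 1. The part of muscle tissue in the results below was not tested, but counts are also given without both of these libraries.

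In cKO ganglia 16 of the 38 genes rose, 1 fell and 21 did not pass, where 2.72% of all tested genes changed in either direction. A gene is called here when the p of edgeR's quasi-likelihood test, adjusted over all 14592 tested genes, is below 0.05. By the same rule 1.6% of all tested genes rose and 1.12% fell. The 16 genes that rose did so by 1.45- to 2.03-fold in the fit. They included the receptor gene Pdgfra, the proteoglycan genes Ogn and Bgn, the glycoprotein genes Sparc and Fn1, and 4 genes of elastic fibres. The gene that fell was Mmp2, for a gelatin-cutting metalloproteinase. Of the 21 others, all had a positive log2 fold change, though that of Vcan was 0.00 and turned with the scaling. The median log2 fold change was 0.60 over the 38 genes and -0.000618 over all tested genes. In 25 of the 38 genes every cKO library lay above every control library, which was so in 6% of all tested genes, and in Mmp2 every cKO library lay below, as in 5.02%. Together the 38 genes made up 6185 to 6776 CPM in the control and 8750 to 10063 CPM in the cKO libraries. The fibroblast markers Pdgfra, Dcn and Lum were present in all 8 libraries. In bulk RNA of a ganglion, more fibroblasts and more RNA per fibroblast cannot be told apart.

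**Figure D1:**
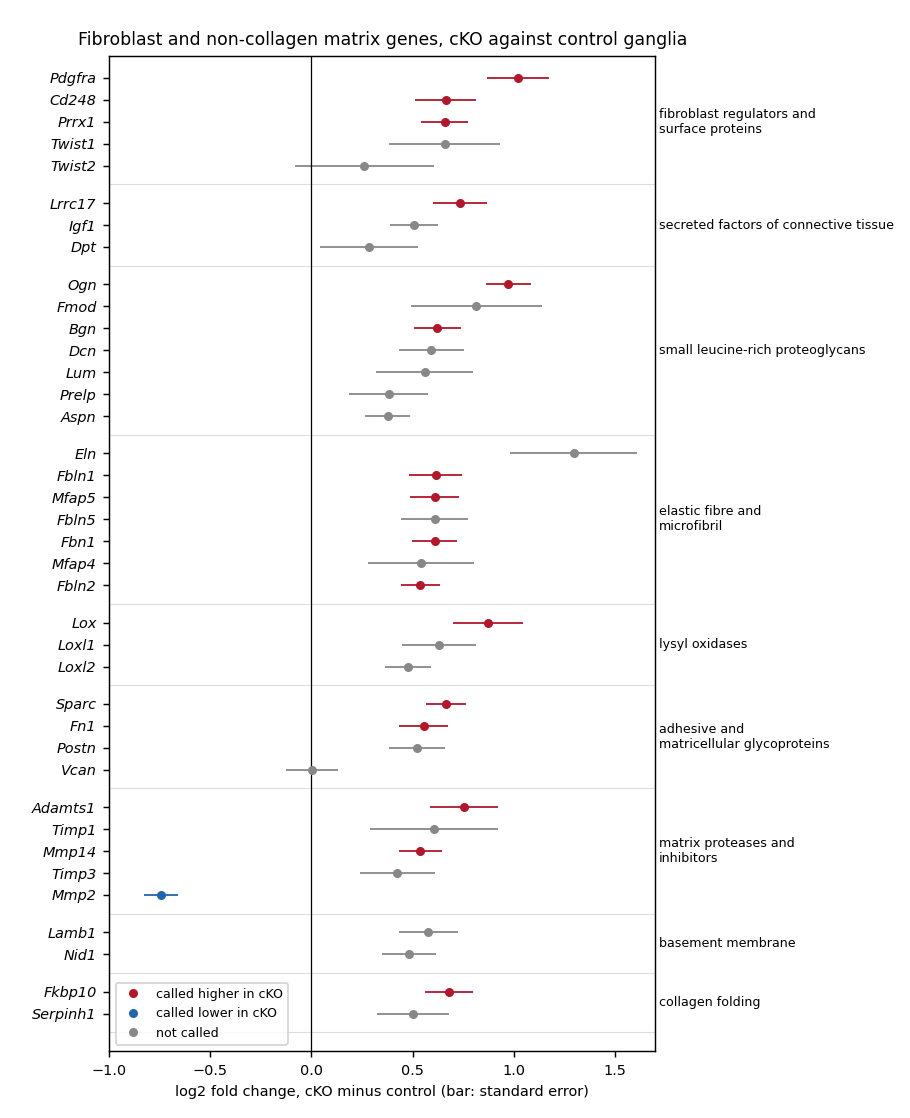
Log2 fold change (cKO minus control, x axis) of each of the 38 genes, grouped by role, with standard errors as bars and the call as colour. Of the 38 genes 16 were called higher and Mmp2 alone was called lower, and Vcan sat at 0.00.

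The calls rested on few animals, while the size of the median did not. With 1 library left out, 2 to 16 genes were higher: 2 when control 4 was missing, 3 for control 2, 5 for cKO 2 and 10 for cKO 3. Calls over all tested genes fell in the same fits. Higher calls were 33 of 14709, 39 of 14730, 75 of 14704 and 79 of 14697 genes, against 234 of 14592 in the main fit. Mmp2 was lower in each of the 8 fits with 1 library left out. The median log2 fold change then ranged from 0.54 to 0.64. Pdgfra, Ogn and Mmp2 were called in all 8 fits, and Sparc in all but the one without control 4. Without both control 1 and cKO 1, 17 genes were higher and 1 lower, against 282 higher and 155 lower of all 14598 tested genes. Eln, Dcn, Fbln5 and Lamb1 gained a call, while Cd248, Fn1 and Mfap5 lost theirs (edgeR adjusted p = 0.0797, 0.0798 and 0.0516).

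Among regulators and surface proteins of fibroblasts, 3 of 5 genes rose. Pdgfra, the receptor for platelet-derived growth factor A and the usual surface marker of fibroblasts, had 32.4, 24.5, 32.2 and 40.7 CPM in control 1 to 4 and 59.8, 69.3, 75.1 and 59.6 CPM in cKO 1 to 4. The lowest cKO library thus stood well above the highest control library. Its mean was 32.4 ± 6.6 CPM in control against 65.9 ± 7.6 in cKO ganglia (SD, n = 4), a log2 change of 1.02 (SE 0.15, edgeR adjusted p = 0.00861). Prrx1, a homeobox factor of mesenchyme, had 19.4, 18.1, 19.7 and 19.9 CPM in control against 29.1, 36.2, 26.8 and 29.9 in cKO ganglia. Its control values were nearly level and its log2 fold change was 0.66 (SE 0.12, edgeR adjusted p = 0.0182), a call lost without control 2 or control 4. Cd248, endosialin, a surface protein of fibroblasts and pericytes, had 32.0, 23.7, 38.6 and 29.2 CPM in control against 50.2, 51.4, 41.5 and 52.6 in cKO ganglia, with a log2 change of 0.66 (SE 0.15, edgeR adjusted p = 0.0454). That call stood just inside the threshold and was kept only without control 3. Twist1 and Twist2, basic helix-loop-helix factors of mesenchyme, were scarce. Twist1 had 0.94 to 1.55 CPM in control against 1.25 to 2.59 in cKO ganglia, and the groups overlapped (edgeR adjusted p = 0.253). Twist2 had 0.797, 0.627, 1.49 and 0.851 CPM in control against 1.66, 1.02, 0.681 and 1.19 in cKO ganglia, which overlapped too, and its log2 change of 0.26 (SE 0.34, edgeR adjusted p = 0.796) was -0.05 without control 1 and cKO 1.

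Of 3 genes for other secreted proteins of connective tissue, 1 rose. Lrrc17, a secreted leucine-rich repeat protein, had 13.5, 12.2, 14.4 and 13.7 CPM in control against 21.9, 22.6, 18.5 and 26.8 in cKO ganglia (log2 fold change 0.74, SE 0.13, edgeR adjusted p = 0.0195). The groups were apart, and the call was lost without control 2, control 4 or cKO 2. Igf1, insulin-like growth factor 1, stood just outside the threshold at a log2 change of 0.51 (SE 0.12, edgeR adjusted p = 0.0502), with 62.4 to 70.3 CPM in control against 80.8 to 113 in cKO ganglia. Dpt, dermatopontin, which binds decorin, had 6.68, 5.58, 11.6 and 5.96 CPM in control against 9.14, 9.73, 6.93 and 10.6 in cKO ganglia. Its groups overlapped because control 3 was the highest of the 8 libraries (edgeR adjusted p = 0.636).

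**Figure D2:**
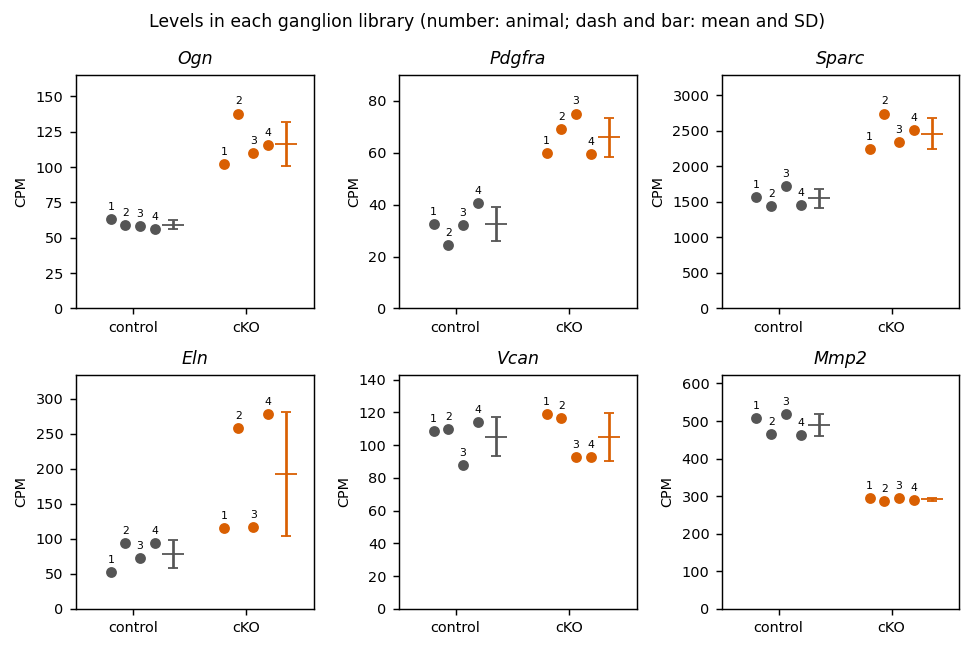
CPM (y axis, from 0) of 6 genes in each of the 4 control and 4 cKO libraries, numbered by animal, with the mean and SD beside each group. Ogn, Pdgfra, Sparc and Eln were above the controls in each cKO library, Vcan overlapped, and Mmp2 lay between 287 and 296 CPM in cKO against 462 to 519 CPM in control ganglia.

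Of the 7 genes for small leucine-rich proteoglycans, which bind collagen fibrils and set their width and spacing, 2 rose and none fell. Ogn, osteoglycin or mimecan, had 63.5, 59.1, 58.1 and 56.2 CPM in control against 102, 138, 110 and 115 in cKO ganglia. It had the smallest p of the genes that rose here, with a log2 change of 0.97 (SE 0.11, edgeR adjusted p = 0.0025). Bgn, biglycan, had 261, 210, 252 and 247 CPM in control against 379, 412, 313 and 390 in cKO ganglia (log2 fold change 0.62, SE 0.11, edgeR adjusted p = 0.0206). The call of Bgn was lost without control 2, control 4 or cKO 2. Dcn, decorin, the proteoglycan after which fibroblasts are often identified, had 248, 333, 372 and 327 CPM in control against 388, 584, 422 and 537 in cKO ganglia. Its groups were apart but its spread was wide, and with a log2 change of 0.59 (SE 0.16, edgeR adjusted p = 0.0812) it did not pass. It passed without control 1 and cKO 1 (edgeR adjusted p = 0.048). Lum, lumican, had 49.9, 94.8, 90.2 and 78.2 CPM in control against 90.2, 150, 81.7 and 139 in cKO ganglia, so that cKO 1 and cKO 3 lay among the controls (edgeR adjusted p = 0.268). Aspn, asporin, had a log2 change of 0.38 (SE 0.11, edgeR adjusted p = 0.111) with groups that did not overlap. Fmod, fibromodulin, was scarce at 0.736 to 1.25 CPM in control against 0.965 to 2.37 in cKO ganglia (edgeR adjusted p = 0.227). Prelp, a proteoglycan that also binds perlecan, had 23.4, 24.4, 41.7 and 31.4 CPM in control against 39.8, 43.3, 30.1 and 44.5 in cKO ganglia (edgeR adjusted p = 0.369). In both genes the groups overlapped.

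Most of these proteoglycan genes lie in clusters in the genome (GENCODE M21 on GRCm38, the assembly also called mm10). Ogn (chromosome 13, 49608046 to 49624501, plus strand) and Aspn (chromosome 13, 49544443 to 49567565, plus strand) are in a run with Ecm2 and Omd, which were not among the 38 genes. Ecm2, at 49504810 to 49532789, rose with a log2 change of 0.76 (SE 0.14, edgeR adjusted p = 0.0226). Omd, osteomodulin, lies between Aspn and Ogn, at 49582462 to 49592822, and had a log2 change of 0.70 (SE 0.20, edgeR adjusted p = 0.0996). Of this run Ogn and Ecm2 thus rose, while Aspn and Omd did not pass. Dcn (97479609 to 97518143) and Lum (97565128 to 97572703) stand side by side on chromosome 10 with Kera, which had a log2 change of 0.32 (SE 0.25, edgeR adjusted p = 0.612). Prelp and Fmod are neighbours on chromosome 1, and Bgn is on the X chromosome (73483602 to 73495933). No gene of the chromosome 10 or chromosome 1 groups passed. Ogn and Aspn overlap Cenpp on the opposite strand, which shares 7 exonic bases with Aspn and none with Ogn.

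Promoters are shown for Ogn and Aspn, genes of the same run, and for Pdgfra and Sparc. Ogn was called and Aspn was not, a difference that was not tested. Pdgfra and Sparc were called in at least 7 of the 8 fits with 1 library left out. The promoters come from RefSeq on GRCm38.p6, which gave 29 promoters for 26 of the 38 genes. Each is the 250 bases before the RefSeq start, 5′ to 3′ on the gene's strand, with matches to 4 motifs in capitals: the TATA box TATAAA, the GC box GGGCGG, the AP-1 site TGANTCA and the MCAT element CATTCC, each on both strands. The positions are chr13:49607765-49608014 (plus) for Ogn, chr13:49544193-49544442 (plus) for Aspn, chr5:75152001-75152250 (plus) for Pdgfra and chr11:55420081-55420330 (minus) for Sparc. The RefSeq start of Sparc lies inside the gene as GENCODE draws it (chromosome 11, 55394500 to 55423183, minus strand). Those of Ogn and Pdgfra lie before the GENCODE starts, which are at 49608046 and 75152292. Of the 29 promoters, 19 had the bases just after their RefSeq start in a GENCODE transcript of the same gene.
Ogn: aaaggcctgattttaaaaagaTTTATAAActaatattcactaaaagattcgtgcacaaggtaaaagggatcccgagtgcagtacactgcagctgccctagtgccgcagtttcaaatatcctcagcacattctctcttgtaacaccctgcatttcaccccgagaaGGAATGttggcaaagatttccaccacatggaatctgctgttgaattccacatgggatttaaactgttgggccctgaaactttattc
Aspn: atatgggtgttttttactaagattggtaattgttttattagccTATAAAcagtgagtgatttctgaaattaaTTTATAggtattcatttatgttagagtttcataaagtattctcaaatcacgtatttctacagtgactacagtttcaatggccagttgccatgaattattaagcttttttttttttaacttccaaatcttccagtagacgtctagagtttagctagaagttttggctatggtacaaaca
Pdgfra: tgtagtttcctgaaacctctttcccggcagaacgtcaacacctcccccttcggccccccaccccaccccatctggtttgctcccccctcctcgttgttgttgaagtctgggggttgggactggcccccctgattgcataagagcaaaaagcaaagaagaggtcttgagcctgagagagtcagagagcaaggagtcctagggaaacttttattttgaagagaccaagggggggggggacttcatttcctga
Sparc: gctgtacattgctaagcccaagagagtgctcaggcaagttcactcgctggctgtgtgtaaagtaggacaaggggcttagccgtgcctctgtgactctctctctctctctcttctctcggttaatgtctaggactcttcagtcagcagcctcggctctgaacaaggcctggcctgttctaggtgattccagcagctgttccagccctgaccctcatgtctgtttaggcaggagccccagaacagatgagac
Ogn held overlapping TATA box matches far from the start, at -229 and -227, and an MCAT element at -86. Aspn held TATA box matches at -207 and -178. Pdgfra and Sparc held none of the 4 motifs in this window. Over the 29 promoters a GC box was found in 51.7%, against 32.7% of all 32851 promoters of the same length, a TATA box in 20.7% against 12.4%, an MCAT element in 13.8% against 12.6% and an AP-1 site in 3.45% against 6.75%. A match is a run of letters and not a shown binding site.

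Of 7 genes of elastic fibres and microfibrils, 4 rose and none fell. Eln, elastin, the core of the elastic fibre, had the largest log2 change of the 38 genes and still did not pass, at 1.30 (SE 0.31, edgeR adjusted p = 0.0552). It had 53.0, 94.6, 72.04 and 93.3 CPM in control against 115, 258, 117 and 278 in cKO ganglia. Each cKO library was above each control library, but cKO 2 and cKO 4 stood far above cKO 1 and cKO 3. Without control 1 and cKO 1 it passed (log2 fold change 1.33, edgeR adjusted p = 0.0366). Fbn1, fibrillin 1, which forms the microfibril scaffold, had 161, 144, 173 and 175 CPM in control against 274, 274, 223 and 225 in cKO ganglia (log2 fold change 0.61, SE 0.11, edgeR adjusted p = 0.0212). These groups were well apart. Fbln2, a fibulin of elastic fibres and basement membranes, had 162, 143, 147 and 149 CPM in control against 199, 235, 208 and 231 in cKO ganglia (log2 fold change 0.54, SE 0.10, edgeR adjusted p = 0.0182). Fbln1, another fibulin, had 45.2, 32.1, 36.5 and 35.3 CPM in control against 61.5, 62.6, 55.6 and 48.6 in cKO ganglia (log2 fold change 0.61, SE 0.13, edgeR adjusted p = 0.0372). Mfap5, a microfibril glycoprotein, had 34.9, 30.0, 43.5 and 34.3 CPM in control against 52.2, 56.8, 51.6 and 57.4 in cKO ganglia, with a log2 change of 0.61 (SE 0.12, edgeR adjusted p = 0.0291). The control and cKO values of these called genes did not overlap. Leaving out control 2, control 4 or cKO 2 ended the calls of Fbn1, Fbln2, Fbln1 and Mfap5, and leaving out cKO 3 those of Fbln1 and Mfap5. The call of Fbln1 was lost as well without control 3 or cKO 1, and the call of Mfap5 without cKO 4. Fbln5, which guides elastin onto microfibrils, had 227, 130, 146 and 162 CPM in control against 261, 228, 287 and 239 in cKO ganglia, where control 1 nearly reached the lowest cKO library. Its log2 change of 0.61 (SE 0.17) did not pass (edgeR adjusted p = 0.0818), but without control 1 and cKO 1 it was 0.78 (edgeR adjusted p = 0.0153). Mfap4, another microfibril protein, had 17.7, 22.9, 24.7 and 26.4 CPM in control against 25.8, 42.1, 18.96 and 47.0 in cKO ganglia, where cKO 1 and cKO 3 lay among the controls (edgeR adjusted p = 0.335). It shares 89 exonic bases with Mapk7 on the opposite strand.

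The lysyl oxidases cross-link elastin and collagen. Lox rose, with 20.1, 18.1, 13.2 and 22.3 CPM in control against 31.2, 35.5, 28.2 and 40.1 in cKO ganglia (log2 fold change 0.87, SE 0.17, edgeR adjusted p = 0.0273), a call lost without control 2, control 4, cKO 2 or cKO 4. Loxl1 had 12.9, 9.65, 18.4 and 15.7 CPM in control against 21.6, 22.7, 19.5 and 24.1 in cKO ganglia (edgeR adjusted p = 0.1). Loxl2 had 38.3 to 45.2 CPM in control against 49.4 to 65.0 in cKO ganglia, just outside the threshold (log2 fold change 0.48, SE 0.11, edgeR adjusted p = 0.0518). In all 3 genes the groups did not overlap, though only Lox passed. Of the 2 genes for collagen folding 1 rose. Fkbp10, a prolyl isomerase of the endoplasmic reticulum, had 37.1, 29.6, 36.8 and 32.5 CPM in control against 53.9, 56.8, 46.7 and 60.3 in cKO ganglia (log2 fold change 0.68, SE 0.12, edgeR adjusted p = 0.018), a call lost without control 2 or control 4. Serpinh1, the collagen chaperone HSP47, had 177, 211, 276 and 213 CPM in control against 278, 374, 230 and 361 in cKO ganglia. Control 3 was above cKO 3, and Serpinh1 did not pass (edgeR adjusted p = 0.175).

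Of 4 adhesive and matricellular glycoproteins 2 rose. Sparc, osteonectin, which binds collagen and is made by fibroblasts, endothelium and glia, was the most abundant of the 38 genes per exon length. It had 1569, 1443, 1731 and 1464 CPM in control against 2244, 2745, 2345 and 2507 in cKO ganglia, with a clear gap between the groups (log2 fold change 0.66, SE 0.10, edgeR adjusted p = 0.00856). Fn1, fibronectin, had 172, 179, 232 and 223 CPM in control against 316, 306, 287 and 275 in cKO ganglia (log2 fold change 0.56, SE 0.12, edgeR adjusted p = 0.0386), a call kept only without control 3. Postn, periostin, had 682 to 870 CPM in control against 908 to 1360 in cKO ganglia, with groups apart (log2 fold change 0.52, SE 0.14, edgeR adjusted p = 0.0779). Vcan, versican, a large hyaluronan-binding proteoglycan, had 108, 110, 87.6 and 114 CPM in control against 119, 117, 92.7 and 92.5 in cKO ganglia. Its means were 105 ± 11.9 and 105 ± 14.6 CPM (SD, n = 4), and its log2 change of 0.00 (SE 0.13, edgeR adjusted p = 0.996) was -0.00208 with the size factors of DESeq2.

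Among proteases and their inhibitors the genes did not move one way. Mmp2 had 508, 466, 519 and 462 CPM in control against 296, 287, 294 and 291 in cKO ganglia. The cKO values were nearly equal, with an SD of 4.25 CPM against 29.0 CPM in control ganglia. Its mean fell from 489 to 292 CPM (n = 4 each), a log2 change of -0.74 (SE 0.08, edgeR adjusted p = 0.0025), and an exact permutation test (two-sided) gave p = 0.0286, which is the lower limit with 70 assignments. Without control 1 and cKO 1 its log2 fold change was -0.73 (edgeR adjusted p = 0.00718). Mmp14, the membrane-bound metalloproteinase that activates the proenzyme of Mmp2, had 96.9, 72.6, 89.0 and 88.4 CPM in control against 131, 124, 117 and 133 in cKO ganglia (log2 fold change 0.54, SE 0.11, edgeR adjusted p = 0.0291), a call kept only without control 1. Adamts1, a protease that cuts versican and aggrecan, had 23.3, 15.04, 15.1 and 16.2 CPM in control against 35.5, 28.7, 25.4 and 27.9 in cKO ganglia (log2 fold change 0.76, SE 0.17, edgeR adjusted p = 0.0425). Control 1 and cKO 1 were the highest of their groups, and the call was kept only without control 1, and also without both of these libraries (edgeR adjusted p = 0.00984). Timp2, which takes part in that activation and was not among the 38 genes, had a log2 change of 0.21 (SE 0.10, edgeR adjusted p = 0.327). Timp3, an inhibitor bound to the matrix, had 540, 337, 344 and 339 CPM in control against 596, 472, 618 and 407 in cKO ganglia. Control 1 was above cKO 2 and cKO 4, and Timp3 did not pass (edgeR adjusted p = 0.279). Timp3 shares 1733 exonic bases with Syn3 on the opposite strand, so if counting did not use strand its reads could be mixed with those of Syn3. Timp1, a secreted inhibitor, was scarce, at 2.70, 1.63, 2.46 and 1.64 CPM in control against 1.71, 3.88, 2.61 and 4.64 in cKO ganglia (edgeR adjusted p = 0.384).

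The basement membrane genes Lamb1, a laminin chain, and Nid1, nidogen, which links laminin to type IV collagen, did not pass. Lamb1 had 488, 381, 328 and 378 CPM in control against 685, 518, 646 and 504 in cKO ganglia (log2 fold change 0.58, SE 0.15, edgeR adjusted p = 0.0646). Nid1 had 580, 504, 456 and 501 CPM in control against 818, 679, 793 and 559 in cKO ganglia (log2 fold change 0.48, SE 0.13, edgeR adjusted p = 0.0868). The groups were apart in Lamb1 but not in Nid1, where control 1 exceeded cKO 4. Without control 1 and cKO 1 Lamb1 passed (edgeR adjusted p = 0.031).

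Levels of different genes can be set side by side only per length, here as CPM per kilobase of the joined exons. On that scale Sparc led in control ganglia with 410 ± 34.8, followed by Mmp2 with 145 ± 8.61, and then Postn with 91.9 ± 9.59, Serpinh1 with 89.8 ± 16.8 and Nid1 with 73.5 ± 7.42 (SD, n = 4). Postn and Serpinh1 differed by less than their spread. Per kilobase of the longest transcript Sparc still led in control ganglia at 675, but Mmp2 and Postn were close, at 159 and 153. Serpinh1 was then at 96.4, Bgn at 91.0 and Nid1 at 83.8. On the joined exons Twist2 and Fmod were lowest, at 0.296 ± 0.119 and 0.284 ± 0.0671 CPM per kilobase (SD, n = 4), and could not be ordered. In cKO ganglia Mmp2 was at 85.0 to 87.9 CPM per kilobase, below all 4 cKO values of Postn, which were 104 to 156. Dcn, at 54.9 ± 8.90 CPM per kilobase in control ganglia (SD, n = 4), was above Lum at 32.0 ± 8.24. The gene for the receptor Pdgfra, at 3.24 ± 0.659, and for the factor Prrx1, at 1.74 ± 0.0736 CPM per kilobase (SD, n = 4), were far below the secreted proteins that lead the list.

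**Figure D3:**
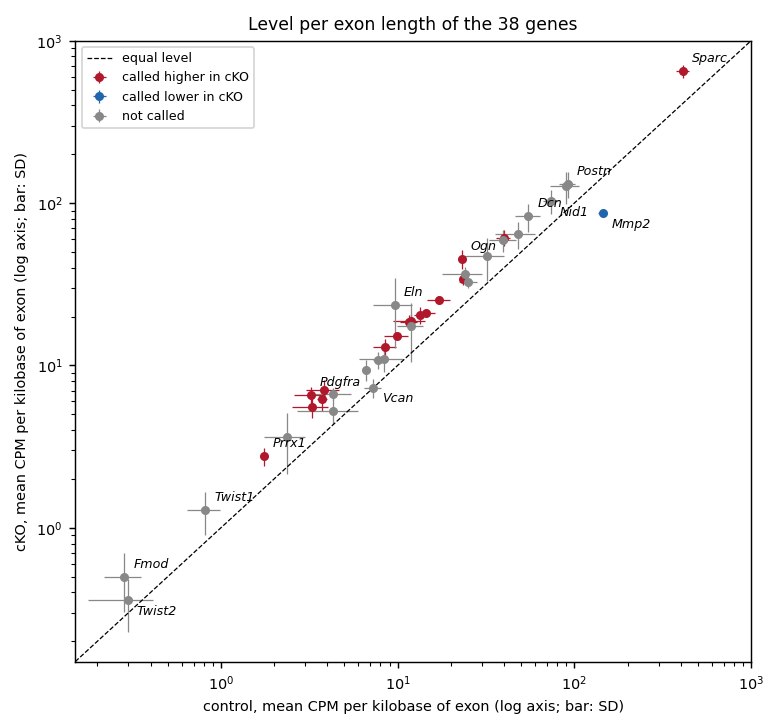
Mean CPM per kilobase of exon in control (x) and cKO ganglia (y) for the 38 genes, both on log axes, with SD bars over 4 libraries, colour for the call and a dashed line of equal level. Sparc was highest, Mmp2 lay below the line and Vcan on it, and the others lay above it.

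Libraries of a group also differed from each other, and the 38 genes did not all vary together there. With each group's mean removed from log2 CPM (prior count 2), the 703 pairs of genes had correlations between -0.976 and 0.957 over the 8 libraries, with a median of 0.283, and 492 were positive. The lowest was that of Dcn with Lamb1. Lamb1 was chosen as a reference after its values were seen: Timp3, Nid1, Fbln5 and Adamts1 had correlations with it from 0.71 to 0.915. Dcn, Lum, Serpinh1, Postn, Mfap4, Eln and Prelp had correlations with Lamb1 from -0.976 to -0.758. Lamb1, Nid1 and Timp3 were high in control 1, cKO 1 and cKO 3, where Dcn, Lum and Eln were low for their group. Pdgfra, Lox, Fbn1 and Mmp2 followed neither, with correlations with Lamb1 of 0.0455, 0.0496, -0.0525 and 0.172. These are descriptions over 8 libraries that share the axis along which all genes varied most: the first principal component, with its group means removed, had a correlation of -0.964 with Lamb1 and 0.984 with Dcn. Control 1, cKO 1 and cKO 3 had scores of -32.9, -37.1 and -12.8 on it, and the other 5 libraries 7.68 to 23.0. Muscle genes were high in control 1 and cKO 1 but not in cKO 3 (37.8 CPM). The 5 tested genes outside the 38 that went most closely with their mean after removal of group means were Crtap, Narfl, Aldh3b1, Cd34 and Trim47, with correlations from 0.967 to 0.983 over the 8 libraries. Crtap is a subunit of the collagen prolyl 3-hydroxylase complex, and Cd34 is a surface protein of endothelium and of many fibroblasts. Narfl, Aldh3b1 and Trim47 are on none of the gene lists used here. All were picked as the highest among all tested genes, where values over 8 libraries can be high by chance.

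**Figure D4:**
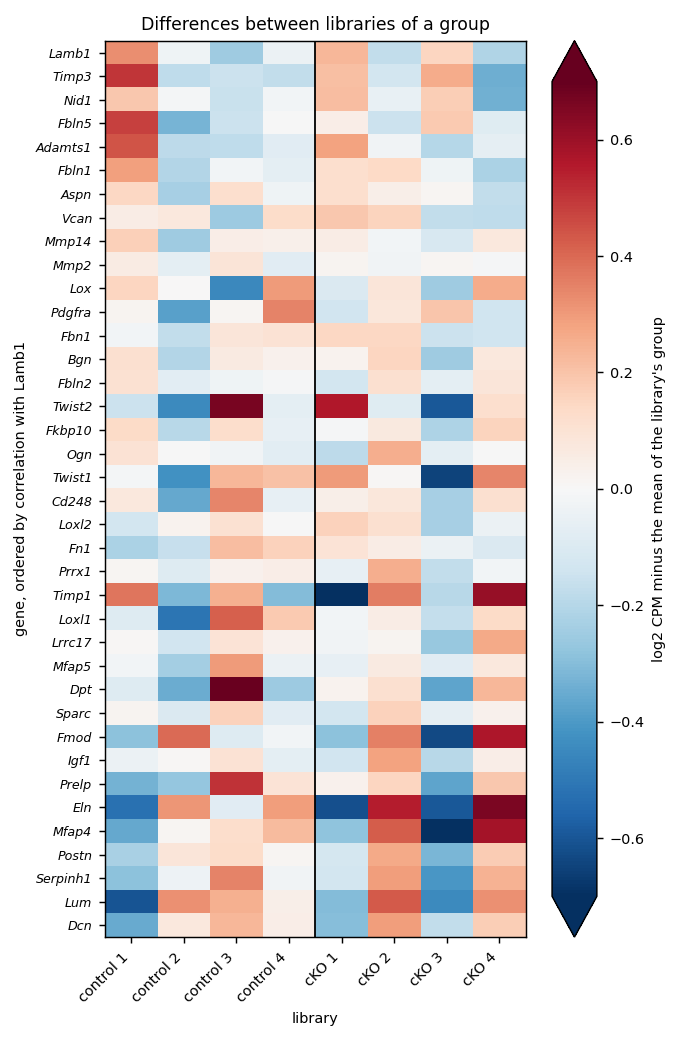
Log2 CPM minus the mean of the library's own group (colour, limited to 0.7 either way) for 38 genes (rows, ordered by correlation with Lamb1) in 8 libraries (columns, controls left of the line). Control 1, cKO 1 and cKO 3 are high in the top rows, such as Timp3 and Nid1, and low in the bottom rows, such as Lum and Dcn.

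Some further matrix genes were higher in cKO ganglia as well. A list of 75 other matrix and fibroblast genes, of which 72 were tested, had 11 that rose and none that fell, 63 positive log2 fold changes and a median of 0.41. Those with the smallest p were Sparcl1, a relative of Sparc, from 295 ± 12.5 to 496 ± 43.2 CPM, the laminin chain gene Lamb2, from 51.5 ± 2.31 to 81.0 ± 4.81 CPM, the nidogen gene Nid2, from 119 ± 5.27 to 175 ± 10.4 CPM, and Ltbp4, which tethers latent TGF-beta to microfibrils, from 134 ± 18.6 to 226 ± 27.9 CPM (SD, n = 4). Their log2 fold changes were 0.75 (SE 0.09), 0.65 (SE 0.09), 0.56 (SE 0.09) and 0.75 (SE 0.13). Lamb2 and Nid2 passed where their relatives Lamb1 and Nid1 did not, a difference that was not tested. Of the 17 collagens 7 rose, with a list median of 0.61. The smallest p were those of the fibrillar genes Col5a2, Col1a2 and Col5a1 and the microfibril gene Col6a1, at log2 changes of 0.58 (SE 0.09), 0.67 (SE 0.12), 0.74 (SE 0.14) and 0.67 (SE 0.13). Their calls were kept in 7, 5, 5 and 4 of the 8 fits with 1 library left out. Of the 72 other matrix genes, 2 were higher when control 2 or control 4 was left out and 4 when cKO 2 or cKO 3 was. Over all tested genes 39, 33, 75 and 79 were higher in those fits, against 234 in the main fit.

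Genes of other cells of the ganglion also differed between the groups. Of 14 endothelial genes 3 rose, the adhesion gene Pecam1, the TGF-beta coreceptor gene Eng and the angiopoietin receptor gene Tek, at log2 changes of 0.54 (SE 0.09), 0.70 (SE 0.14) and 0.70 (SE 0.15). The list median was 0.50, with sums of 223 to 313 CPM in control against 359 to 393 in cKO ganglia. Of 12 mural cell genes 2 rose, Pdgfrb and Notch3, the list median was 0.75, and sums were 880 to 993 and 1006 to 1080 CPM. Of 15 glial genes 3 rose, Mbp, Apoe and Ttyh1, the list median was 0.51, and sums were 2581 to 3146 and 3835 to 4333 CPM. Of the 8 fits with 1 library left out, Mbp kept its call in 7 and Pecam1 in 5. Apoe, Pdgfrb and Notch3 each kept theirs in 3, Eng and Tek in 2, and Ttyh1 in 1. None of 16 sympathetic neuron genes passed, with a median log2 change of -0.14. Nearest to the threshold were Chga, a granule protein, at 0.48 (SE 0.11), and Slc6a2, the noradrenaline transporter, at -0.51 (SE 0.12). Their list sums were 23402 to 24579 CPM in control against 20181 to 21533 in cKO ganglia. The sums of fibroblast, endothelial, mural and glial genes were thus higher and those of neuronal genes lower in each cKO than in each control library. Mural sums were mostly Mcam, at 650 to 767 CPM in control against 625 to 706 in cKO ganglia. Its log2 change of -0.11 (SE 0.09) was the only negative one of the 12 mural genes. In glial sums Apoe was the largest part, at 1117 to 1582 CPM in control against 1934 to 2355 in cKO ganglia. Of the 15 glial genes 14 had positive log2 changes, and Fabp7 had -0.06 (SE 0.33). Without control 1 and cKO 1, 5 endothelial, 2 mural, 5 glial, 1 neuronal and 1 cartilage or bone gene were called higher. In that fit 6 collagens and 14 other matrix genes were called higher, against 7 and 11 in the main fit. Of all 14598 genes tested in that fit 282 were higher and 155 lower, and lower calls were not counted by list. CPM are relative to the scaled size of a library. A smaller share of neuronal RNA would raise the values of all other genes as far as the scaling did not offset it. Its part in the results was not tested. Cartilage and bone genes, with 8 of 17 tested, had 73.0 to 130 CPM in control against 97.1 to 147 in cKO ganglia, with no gene called and Col9a2 and Col11a1 at log2 changes of 1.13 (SE 0.30) and 0.45 (SE 0.16). The cartilage genes Acan, Matn1, Matn3, Comp and Chad and the bone genes Ibsp, Bglap and Sp7 were below the filter, and Cnmd had no row.

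**Figure D5:**
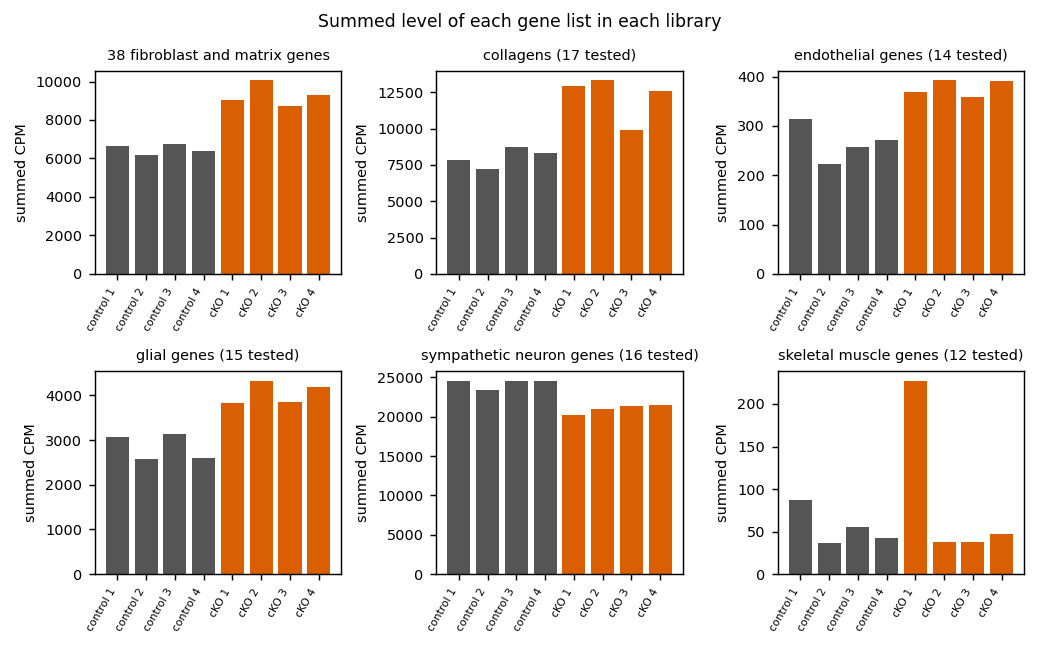
Summed CPM (y axis, from 0) of 6 gene lists in each of the 8 libraries, controls in grey and cKO in orange. The 38 genes reached 8750 to 10063 CPM in cKO against 6185 to 6776 CPM in control ganglia. The sum of neuronal genes was lower in each cKO library, though no neuronal gene was called. Muscle genes stood out in cKO 1 at 227 CPM.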

How the data were processed

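Polyadenylated RNA of 8 mouse ganglion pairs, 4 control and 4 cKO, was sequenced from TruSeq v2 libraries, per the labels' protocols. The authors deposited 1 table of raw read counts by gene symbol. The submitters' processing notes name STAR and the build mm10. Not given in the sources used here are the counting program, its annotation and whether it used strand. Each row had a symbol. No pair of libraries of the same group looked like 1 library deposited more than once, and pairs across the groups were not compared in this way.

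The test was that of edgeR 4.0.16 under R 4.3.3 (TMM, filterByExpr, robust quasi-likelihood, with genotype group as single term) over 14592 of 23827 rows, with Benjamini-Hochberg adjustment over all of them and a threshold of 0.05. The SE was taken as the size of the log2 change over the root of F. CPM use TMM-scaled library sizes. Labels do not say whether animals of both groups shared litters, and p-values measure the spread between these animals. The steps were tested on simulated data.

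Alternatives were limma 3.58.1 voom, the DESeq2 1.42.0 Wald test and its size factors, scaling by library size only, a filter of 1 CPM in 4 or more libraries or of 1 count over all, the label number as a block, each library left out, both libraries numbered 1 left out, and, for levels, the longest transcript. Exon lengths and positions come from GENCODE M21, which matched all 38 genes, and promoters from RefSeq. Figures used matplotlib 3.10.9.

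The 38 genes and the lists were chosen with earlier results of these data known, so list counts and medians are descriptions. Called genes, and in each role those of the smallest and largest p, are given for each library. From other lists up to 4 called genes with the smallest p were named, or else the 2 with the smallest p, beside Kif1b, Th and Dbh and the 5 genes most correlated with the mean of the 38. Timp2, Ecm2, Omd and Kera were named after their values were seen. The motifs and Lamb1 as a reference were also chosen after values were seen.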

Additional observations from a re-analysis of the deposited data

Results flagged for a closer look

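Of 78 groups of 4 libraries (the 38 genes and Kif1b in each genotype), 2 held a library far from the other 3, by Dixon's test on CPM, where chance flags about 1 in 20 groups. Both were control 1. Timp3 was at 540 CPM in control 1 against 337 to 344 CPM in the other controls, a gap of 0.966 of the group's range. Adamts1 was at 23.3 CPM in control 1 against 15.04 to 16.2 CPM, a gap of 0.863. Without control 1 and cKO 1, the log2 change of Timp3 was 0.55 (edgeR adjusted p = 0.0759) and that of Adamts1 0.82 (edgeR adjusted p = 0.00984).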

How the results depend on the processing

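Over 16 alternatives, 36 of the 38 genes kept the sign of their log2 fold change, and the exceptions were Vcan and Twist2. Vcan was at -0.00208 with DESeq2 size factors, -0.00209 in the Wald test of DESeq2, -0.000816 in limma voom, -0.000588 with the replicate block and -0.0471 without both libraries numbered 1. With 1 library left out it ranged from -0.0787 to 0.0592. Twist2 was at -0.0496 without both libraries numbered 1. The Wald test of DESeq2 gave 1012 changed genes, 26 of the 38 higher and 24 of the other matrix genes higher. With the replicate block edgeR gave 687 changed genes, 21 of the 38 higher and 18 other matrix genes higher. Igf1, Dcn, Eln, Fbln5 and Lamb1 gained a call with the block (edgeR adjusted p = 0.043, 0.0316, 0.00596, 0.035 and 0.031), and none of the 38 lost one. The label numbers were not taken as pairs: the labels give no shared litter, and same-numbered deviations correlated over genes at 0.725, 0.352, -0.302 and 0.265 for numbers 1 to 4. Controls 1, 2 and 4 correlated best with their own number and control 3 did not. Of the cKO animals only cKO 1 did. There cKO 2 and cKO 4 went best with control 3 (0.404 and 0.371), and cKO 3 with control 1 (0.242). Whether the numbers mark pairs is thus not settled. With 1 library left out, the counts were 74 to 514 changed genes, 2 to 16 of the 38 higher, 1 lower in each fit and 2 to 12 other matrix genes higher, where fewer animals also mean less power. Scaling by library size only called 343 genes higher and 145 lower against 234 and 163 in the main setting, 21 of the 38 higher, and a median of all genes of 0.0479. Of 608 values of single genes under the alternatives, 506 kept their sign and side of the threshold, 64 lost a call and 29 gained one. Genes near 1 CPM, such as Twist2 and Fmod, are limited by depth.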

Other observations

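Among markers of other cells that could lie in the capsule, Cldn1, a tight junction protein of perineurial cells, rose from 64.8 ± 8.35 to 115 ± 3.65 CPM (SD, n = 4; log2 fold change 0.82, SE 0.11, edgeR adjusted p = 0.0053) and was called with each library left out. It was 1 of 7 tested genes of 10 on a list of perineurial and arachnoid barrier genes, of which none of the other 6 passed. The list median was 0.74, but 0.28 without control 1 and cKO 1, where 1 gene of the list was called higher. Its sums, 82.6 to 97.5 CPM in control against 138 to 147 in cKO ganglia, were mostly Cldn1, and the next gene by CPM, Slc2a1, had a log2 change of 0.07. Mpzl2, Gjb6 and Slc47a1 of that list were below the filter. None of 11 tested macrophage genes passed, with a median log2 change of 0.20, and Ptprc and Ctss had 0.35 (SE 0.15) and 0.31 (SE 0.17). None of 8 adipocyte genes passed, and those nearest to passing, Lpl and Cidec, were at 0.37 (SE 0.25) and 1.21 (SE 1.00) on the log2 scale. Sums of adipocyte genes were 42.3 to 97.1 CPM in control against 53.6 to 163 in cKO ganglia, highest in control 1 and cKO 1, and the list median was 0.30, or -0.47 without these libraries.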
